A study of Hipposideros armiger with 2 samples.

Results

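The genes described here are 38 complement components, regulators and receptors, chosen as a fixed list of names, in RNA from libraries labelled liver of the great Himalayan leaf-nosed bat (Hipposideros armiger). Of these, 36 were found among the 12783 distinct gene names of the authors' de novo assembly, spread over 107 of its 55378 assembled genes. No assembled gene had the name FCN3 or C3AR1. An assembled gene is a cluster of transcripts built from the reads themselves, and its name is the best protein match that the authors list. For the 107 assembled genes these matches were to human proteins in 52 cases and to pig, cow and mouse proteins in 10 cases each, so a name does not show the species of origin.

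Both libraries came, per the labels and the design text, from wild-caught male adult bats of the CW cave, labelled genotype WT and treatment heavy metals exposure, and the cave and the exposure are shared by both. They form 1 group of 2 libraries (replicates 1 and 2). Bats from the second cave of the study are not analysed here, which leaves no comparison group and allows no test. Values are therefore given for each library, and every difference is 1 library against 1 library with no replicate check.

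The libraries held 18741214 and 18778280 expected counts. They differed in the RNA of hepatocytes, the main cell of the liver. All 20 genes of a hepatocyte list were found, and their levels in TPM, a length-corrected share of all transcripts, summed to 15672 in replicate 1 and 522.3 in replicate 2, with ALB at 7990 and 176 TPM. All 12 genes of a lung and airway epithelium list were also found, at a summed 12445 and 19804 TPM, with SFTPC at 2554 and 4047 TPM. The lung list thus stood below the hepatocyte list in replicate 1 and far above it in replicate 2, which goes against the liver label of the library labelled replicate 2. In replicate 1 too the lung transcripts were abundant, with SCGB3A1 at 8069 TPM beside ALB at 7990, and the lung list held 237696 counts against 256636 for the hepatocyte list. In such bulk libraries, fewer cells of a type and less RNA per cell cannot be told apart.

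Complement is a cascade of plasma proteins that tags and lyses microbes. It is started by antibody-bound C1 (the classical pathway), by lectins that bind microbial sugars (the lectin pathway) or by spontaneous turnover of C3 amplified by factor B (the alternative pathway). All routes cleave C3 and then C5, after which C6 to C9 assemble into a membrane pore. Hepatocytes make most of the soluble components, whereas macrophages and dendritic cells make most C1q, and the regulators CD46, CD55 and CD59 protect the membranes of many cells.

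Complement names took 0.3918% of all TPM in replicate 1 and 0.2764% in replicate 2. As a share of expected counts this was 0.4391% (Wilson 95% interval 0.4362% to 0.4421%) and 0.3222% (0.3196% to 0.3247%). These intervals, like those given later, reflect counting error alone and treat every read as independent. The reads carry no molecular identifiers and may be copies of one molecule, so the intervals may be too narrow even for that error. The 24 plasma proteins made mainly by the liver held 84.43% of complement TPM in replicate 1 and 75.25% in replicate 2. Of these, C1R, C1S, SERPING1, COLEC10, COLEC11, C3 and CFB are also made elsewhere, and the remaining 17 held 37.34% and 23.53%. The 7 found members that are soluble but made largely by other cells or by several tissues (C1QA, C1QB, C1QC, C7, CFP, FCN1 and CLU) held 14.38% and 22.62%. The 5 found membrane regulators and receptors held 1.187% and 2.123%.

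**Figure D1:**
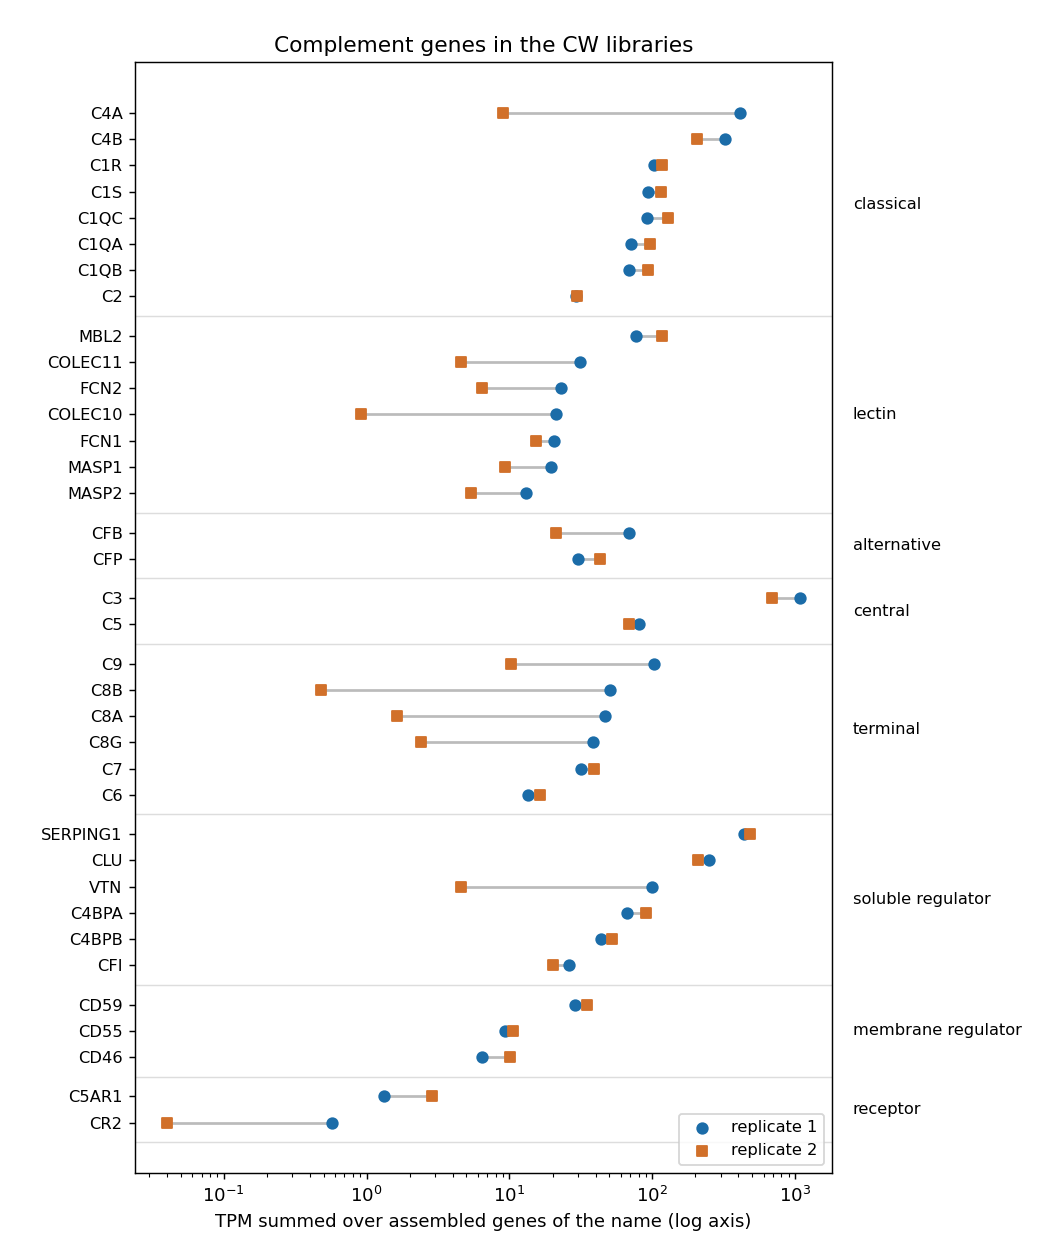
Level of each complement name in the 2 CW libraries, as TPM summed over its assembled genes on a log axis, ordered by role in the cascade, with circles for replicate 1, squares for replicate 2 and a grey line joining the 2 values. C3 has the highest level in both libraries (1085 and 682 TPM), and the C8 chains, C9, VTN, COLEC10 and C4A, as well as the barely detected CR2, have wide gaps between the libraries.

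C3, the protein on which all routes converge, had the highest level in either library, 1085 TPM and 682 TPM. SERPING1, the C1 inhibitor that inactivates C1r, C1s and the lectin proteases, followed at 437 and 483.7 TPM. Its order against other genes rests on 1 assembled gene of length 1694, with 313.4 TPM from only 326 expected counts in replicate 1, whereas the assembled gene of length 1853 with 4692 counts was at 122.2 TPM. C4A came next in replicate 1, at 409.5 TPM, of which 332.9 TPM came from 283 counts on an assembled gene of length 220, and was at 9.03 TPM in replicate 2. C4B was at 319.9 and 205.6 TPM, and CLU at 248.5 and 207.6 TPM. By expected counts the leading members of replicate 1 were C3 (18530), C4B (13301), CLU (6621) and SERPING1 (5023).

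At the other end, the B cell receptor CR2 was listed at 0.57 TPM from 14 counts in replicate 1 and at 0.04 TPM from 1 count in replicate 2, which fell below the filter used for ratios. Of 8 B cell markers 4 were found, summing to 13.86 and 15.42 TPM, and MS4A1 was not among them. The C5a receptor C5AR1 was at 1.33 and 2.86 TPM, from 40 and 76 counts. Members at 10 TPM or more numbered 32 in replicate 1 and 24 in replicate 2.

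Ratios between the libraries were taken as log2(CPM + 1), where CPM is a name's counts scaled to a common library size, replicate 2 over replicate 1, with the median of all names removed, for names with a mean of at least 1 CPM. A gene past 2-fold is called lower or higher. Of the 35 members that passed this filter, 12 were over 2-fold lower in replicate 2, 23 lay within 2-fold and 0 were higher. The same calls covered 5.16% (lower) and 0.0266% (higher) of all 11289 names tested. The share of members that were lower is above that background, but no test of it was made, and the median log2 ratio of the members was -0.47 against 0 for all names.

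The lower members were almost all liver-made plasma proteins. Of the 24, 11 were over 2-fold lower and 13 within 2-fold, with a median log2 ratio of -0.82 and values from -4.53 to 0.17. Among the 17 left without those also made elsewhere, 8 were lower and 9 within 2-fold, with a median of -0.9. Of the 7 other soluble members only CLU was lower (median -0.10), and of the 4 tested membrane proteins none was (median 0.09, from 0.00 to 0.50). Every one of the 20 hepatocyte markers was over 2-fold lower; their median was -4.47 and their highest value -1.52, for TF. Because every marker was past 2-fold, all 13 liver-made members within 2-fold lay above them by the calls themselves. The other 11 lay inside the markers' range, but TF, with 245 and 89 counts, alone set its upper end. The next highest marker was TAT at -3.71, and CFB (-1.82), FCN2 (-2.08), C9 (-2.89), C8G (-2.95) and COLEC11 (-2.98) lay above it. The part of the difference in hepatocyte RNA in these ratios was not tested.

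**Figure D2:**
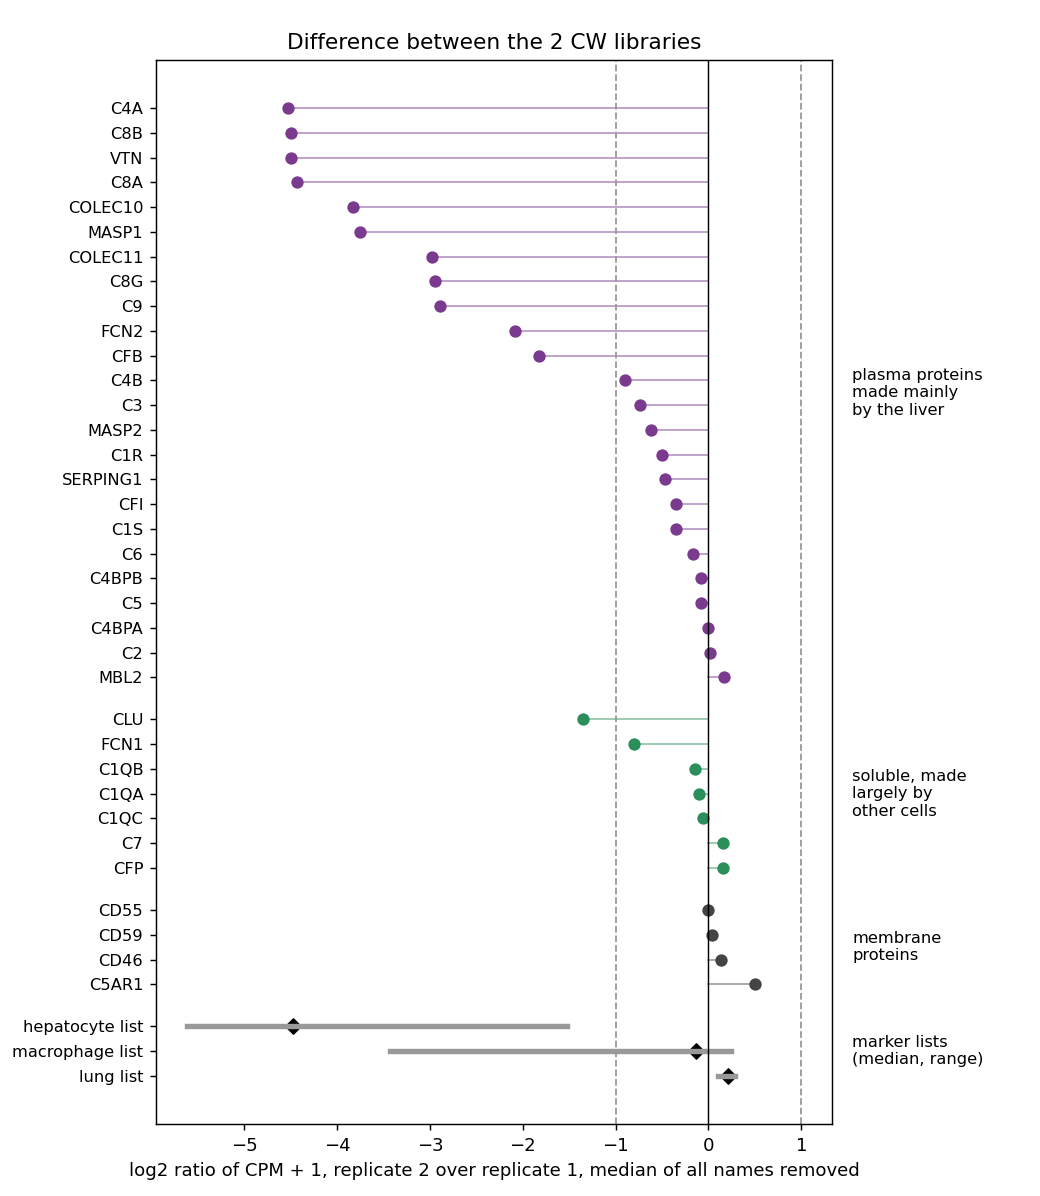
Log2 ratio of CPM + 1 between the libraries (replicate 2 over replicate 1, median of all names removed) for the 35 tested complement names by site of synthesis, with dashed lines at 2-fold, and below them the median (diamond) and range (bar) of 3 marker lists. The liver-made members run from -4.53 to 0.17 with a gap between CFB (-1.82) and C4B (-0.90), while C1q chains and membrane proteins lie near 0.

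Among liver-made members the summed level of the 11 lower ones was 911.5 TPM in replicate 1 and 70.79 TPM in replicate 2. That of the 13 within 2-fold was 2386 and 2002 TPM. In replicate 1 the levels of both sets overlapped, from 19.61 to 409.5 TPM in the first and from 13.11 to 1085 TPM in the second, with medians of 46.52 and 77 TPM. The sets were split by the ratio itself, so their separation in replicate 2 (medians of 4.61 and 89.62 TPM) follows from the split.

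The classical pathway begins with C1q, a recognition protein built of A, B and C chains. C1QA was at 70.32 and 95.99 TPM, C1QB at 69.06 and 93.49 TPM, and C1QC at 91.59 and 128.8 TPM. In both libraries C1QC was the highest chain and A and B were close to each other. On counts the chains lay within 2-fold, with log2 ratios of -0.10, -0.14 and -0.06, although the summed TPM were higher in replicate 2 for each. The macrophage list, the usual source of C1q, had 13 of 14 members found and summed to 471.5 and 534.2 TPM, with its defining marker CD68 at 23.42 and 33.43 TPM. Its median log2 ratio was -0.13, with 10 of 12 tested members within 2-fold; the other 2 were MARCO (-3.43) and CD5L (-1.67).

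C1R and C1S encode the proteases of C1, each activating the next step. C1R was at 102.5 and 116.5 TPM and C1S at 93.33 and 115.4 TPM, with log2 ratios on counts of -0.50 and -0.35. Their levels stayed close to one another in both libraries. C2, the protease of the classical C3 convertase, was at 29.02 and 29.76 TPM with 1119 and 1362 counts and a log2 ratio of 0.02. C1r and C1s are known to be made by fibroblasts and other tissues as well as the liver. The stroma list, with 8 of 8 members found and COL1A1 at 22.88 and 25.74 TPM, summed to 465.3 and 530.8 TPM.

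C4, cleaved by C1s to seed the convertase, appeared under the member names C4A and C4B. A short assembled gene with the name C4, which is no member and was singled out after its values were known, had 39 and 8 counts and a log2 ratio of -1.23. C4B was a single assembled gene of length 5941 with 13301 and 8528 counts, a log2 ratio of -0.90. C4A was 9 assembled genes of at most 901 bases, with 573 and 10 counts in total, a log2 ratio of -4.53. Counting error alone allows 37.09-fold to 144-fold lower without the pseudocount for C4A and 1.82-fold to 1.922-fold lower for C4B. The names belong to near-identical paralogs in humans, so the counting could split reads between them, and the C4A value is uncertain for that reason. Counted as 1 gene, an alternative chosen after the values were seen, C4A and C4B had a log2 ratio of -0.961, within 2-fold.

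In the lectin pathway 4 of 7 tested members were over 2-fold lower, with a median log2 ratio of -2.08. In the classical pathway 1 of 8 was lower, with a median of -0.25. The lectin median is the value of FCN2, from 116 and 17 counts, and the lower classical member was C4A, whose value is uncertain. Summed TPM differed less, at 205.7 and 158.4 for lectin and 1185 and 794.6 for classical members. These sums lean on single members, with MBL2 at 77 and 116.4 of the lectin TPM and C4A at 409.5 and 9.03 of the classical TPM. Mannose-binding lectin, MBL2, was not lower: it had 2581 and 3478 counts on 1 assembled gene and a log2 ratio of 0.17. In contrast MBL1, which is no member of the list and was singled out only once its values were known, had 79.84 and 4.01 TPM and a log2 ratio of -3.93. The collectins COLEC10 and COLEC11, which also bind sugars and form complexes with the MASP proteases, were at 21.32 and 0.91 TPM and at 31.18 and 4.6 TPM, with log2 ratios of -3.83 and -2.98. Replicate 2 was the low library for both.

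Ficolins recognise acetylated sugars. FCN1, a ficolin of monocytes and neutrophils, was at 20.43 and 15.37 TPM with 515 and 347 counts and lay within 2-fold at -0.80. FCN2, the liver ficolin, had only 116 and 17 counts over 3 short assembled genes and a log2 ratio of -2.08. Of those, 1 went from 81 to 2 counts and another from 18 to 14. Without assembled genes over 16-fold lower, FCN2 had a log2 ratio of -0.81.

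The lectin-bound proteases parted on counts but not on TPM. MASP1 was at 952 and 66 counts, a log2 ratio of -3.75, and was 13.47-fold to 22.55-fold lower by counting error alone without the pseudocount. MASP2, which cleaves C4 and C2, was at 305 and 231 counts and -0.62. MASP2 was the sum of 1 assembled gene of length 2995 that had 159 and 22 counts and 1 of length 2287 that had 146 and 209. On summed TPM the log2 ratio of MASP2 (13.11 and 5.36 TPM) was -1.48 and that of MASP1 (19.61 and 9.33 TPM) was -1.33, both past 2-fold. In replicate 2, 8.5 of the MASP1 TPM came from 12 counts on an assembled gene of length 273.

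In the alternative pathway the members split. CFB, the protease precursor of the C3 convertase, was at 68.61 and 21.07 TPM, with 3741 and 1259 counts and a log2 ratio of -1.82. CFP, properdin, which stabilises that convertase and comes mainly from myeloid cells, was at 30.17 and 43.03 TPM and a log2 ratio of 0.16. The neutrophil list summed to 1388 and 2062 TPM with all 7 tested members within 2-fold, S100A8 at 554.6 and 816.3 TPM, and MPO at 0 in both libraries.

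The assembled genes named C3 were examined one by one. Summed over 19 assembled genes, C3 had 18530 and 13327 counts and a log2 ratio of -0.74. The highest of them, of length 5177, had 14735 and 12821 counts (556.6 and 608.7 TPM), which was 79.52% of C3 counts in replicate 1 and 96.2% in replicate 2. Its log2 ratio was -0.46. The other 18 together had 3795 and 506 counts, a log2 ratio of -3.17, with 528.6 and 73.36 TPM. About as much C3 TPM in replicate 1 therefore came from the 18 as from the highest one.

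Those 18 did not move as one. One of length 557 had 1750 and 28 counts, and one of length 6146, longer than the leading C3 assembled gene, had 1293 and 52. Another of length 5028 went the other way, with 117 and 279 counts. Of the 10 C3 assembled genes with at least 30 counts, 5 were over 16-fold lower, 1 was 4-fold to 16-fold lower, 3 lay within 2-fold and 1, with 10 and 32 counts, was over 2-fold higher. At least 10 counts in replicate 1 and 0 in replicate 2 were found for 4 C3 assembled genes, which held 146 counts. That was 21.05% of the 19 named C3, against 2.029% of all 25186 named assembled genes.

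**Figure D3:**
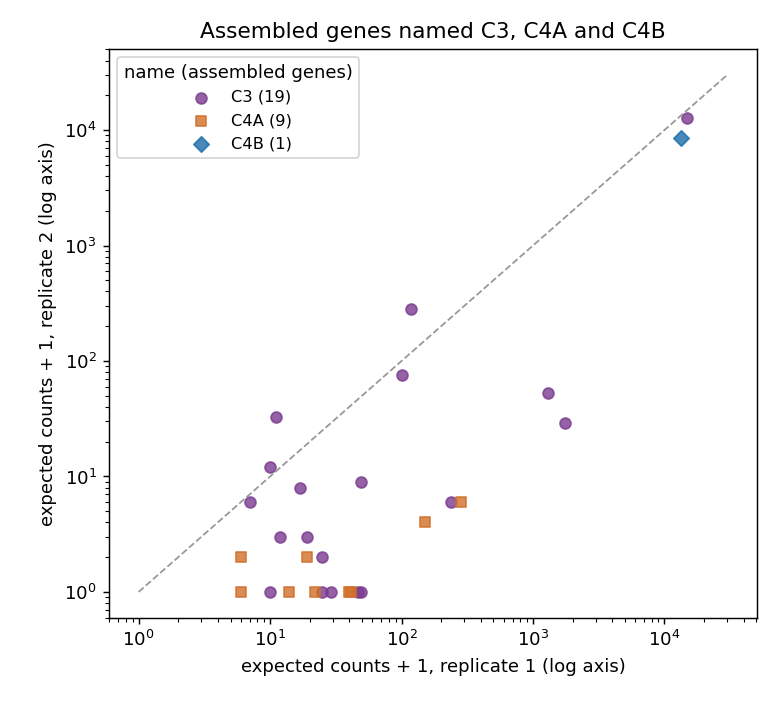
Expected counts + 1 in replicate 1 and replicate 2, both on log axes, for each of the 19 assembled genes named C3, the 9 named C4A and the 1 named C4B, with a dashed line where the counts are equal. The leading C3 assembled gene and C4B lie near the line, while the C4A ones and most other C3 ones lie below it, several at 0 counts in replicate 2.

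C5, which is cleaved to the chemoattractant C5a and to C5b, was at 80.37 and 68.65 TPM. Its assembled gene of length 7528 had 2303 and 2673 counts, while shorter ones had 44 and 15 counts in replicate 1 and 0 in replicate 2. The summed log2 ratio was -0.08.

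The terminal pathway split by step. C6, the first to join C5b, had 958 and 1017 counts (13.44 and 16.31 TPM, log2 ratio -0.17). C7, which is largely made outside hepatocytes and anchors the complex to the membrane, had 2095 and 2818 counts (31.73 and 38.76 TPM, 0.16). Both lay within 2-fold. The 3 chains of C8, which begins to pierce the membrane, were all lower in replicate 2. C8A had 623 and 15 counts, C8B 714 and 18, and C8G 627 and 79, with log2 ratios of -4.43, -4.50 and -2.95.

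Summed TPM of the C8 chains were 46.52, 50.26 and 38.48 for A, B and G in replicate 1 and 1.64, 0.48 and 2.39 in replicate 2. For A and B most of the replicate 1 TPM came from short assembled genes with few counts, such as 31.43 TPM from 27 counts for C8A, while their leading assembled genes were at 11.79 and 15.92 TPM. Counting error alone allows 29.96-fold to 89.52-fold lower for C8A, 29.88-fold to 80.72-fold for C8B and 7.521-fold to 12.18-fold for C8G without the pseudocount, so the interval of C8G does not meet the other 2. C9, which polymerises to form the pore, had 1594 and 240 counts (102.9 and 10.32 TPM) and a log2 ratio of -2.89, with an interval of 6.949-fold to 9.16-fold.

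Among soluble regulators, those that control C3b and C4b lay within 2-fold. CFI, the protease that cleaves both, had 1409 and 1320 counts (log2 ratio -0.35). C4BPA and C4BPB, the chains of the C4b-binding protein that serves as its cofactor, had 2505 and 2974 counts and 691 and 785 counts, with log2 ratios of -0.01 and -0.08. Their levels were 65.9 and 89.62 TPM and 43.7 and 51.98 TPM. SERPING1 had 5023 and 4331 counts and a log2 ratio of -0.47.

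VTN and CLU, which both hold back assembly of the terminal complex, were lower in replicate 2. VTN, a hepatocyte product, had 2255 and 100 counts (100 and 4.61 TPM) and a log2 ratio of -4.50. CLU, made by many cell types, had 6621 and 3107 counts and a log2 ratio of -1.35. The TPM of CLU differed less, at 248.5 and 207.6, and on summed TPM its log2 ratio was -0.59, within 2-fold.

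Membrane regulators had lower levels and close values. CD59, which blocks the pore, was at 28.78 and 34.93 TPM, CD55, which speeds the decay of convertases, at 9.26 and 10.62 TPM, and CD46, a cofactor for factor I, at 6.42 and 10.01 TPM. Their log2 ratios were 0.04, 0.00 and 0.14. C5AR1 had a log2 ratio of 0.50, the highest of the members, with a counting interval of 0.4192 to 0.9373 for replicate 1 over replicate 2 without the pseudocount. Endothelial genes, which carry these regulators too, summed to 331.6 and 380.2 TPM, with PECAM1 at 38.08 and 55.14 TPM and 6 of 8 within 2-fold. The other 2 were lower, CLEC4G at 60.36 and 3.94 TPM (-3.02) and STAB2 at 12.82 and 5.46 TPM (-1.2).

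Of a fixed list of 23 further complement genes outside the members, 13 were found. Of 12 tested, 1 was over 2-fold lower, beside 5.16% of all names tested. It was CPN1 (8.85 and 0.18 TPM, -3.43), the catalytic chain of the carboxypeptidase that inactivates C3a and C5a. Outside that list, and noticed only once their values were known, C1RA (46 and 2 counts, -1.74) was also over 2-fold lower, as were MBL1 and C4. C1SA, looked up beside them, went the other way with 3 and 10 counts, below the filter used for ratios. The partner of CPN1, CPN2, was at 18.32 and 10.67 TPM (-0.70). C1RL, also of the list, lay within 2-fold on counts (221 and 173, -0.56), although its TPM were 22.98 and 3.51. The highest were CALR, a chaperone that binds C1q, at 322.6 and 255.6 TPM, and CFD, the protease that activates factor B, at 61.09 and 63.06 TPM.

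Several members whose leading assembled gene lay within 2-fold also had others with few or no counts in replicate 2. Of the 107 assembled genes, 64 had at least 30 counts over both libraries, with ratios taken on counts raised to a floor of 3. Of these, 28 were over 4-fold lower in replicate 2, 19 of them over 16-fold, and 33 lay within 2-fold. Over the 14347 named assembled genes with as many counts, 5.73% were over 4-fold lower, 3.44% over 16-fold lower and 90.7% within 2-fold.

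Counting only assembled genes with at least 30 counts, 16 members had none outside 2-fold, 9 had only ones over 4-fold lower, and 8 had both kinds. The other 2, CFB and CLU, each had a leading one that was 2-fold to 4-fold lower. Beside it CFB had 1 with 59 and 0 counts, and CLU had 1 within 2-fold. Below that limit some of the 16 also had low ones, such as 1 of C4BPA with 27 and 0 counts and 1 of C2 with 16 and 0. The 9 were C4A, C8A, C8B, C8G, C9, COLEC10, COLEC11, MASP1 and VTN. The 8 were C3, C4BPB, C5, C7, CD59, CFI, FCN2 and MASP2. The same split was not made over all names, so these numbers of members have no background. A name with more assembled genes can also more easily hold both kinds. For CD59, 1 of length 683 had 62 and 2 counts beside 1 of length 1489 with 610 and 837. For C7, 1 of length 1231 had 73 and 0 counts, and for C4BPB, 1 of length 557 had 43 and 2.

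The assembled genes over 4-fold lower were often short. Among complement ones with at least 30 counts, 16 of 22 under 1000 bases and 12 of 42 of 1000 bases or more were over 4-fold lower (72.73% and 28.57%). Over all named assembled genes these shares were 12.19% and 3.458%. At least 10 counts in replicate 1 and 0 in replicate 2 were found for 19 complement assembled genes of 10 members, 642 counts in all, and the reverse for 0. That was 17.76% of the 107, against 2.029% of all 25186 named assembled genes, where the reverse held for 0.1072%. Of the 19 complement ones, 18 belonged to liver-made members, and the other was that of C7.

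**Figure D4:**
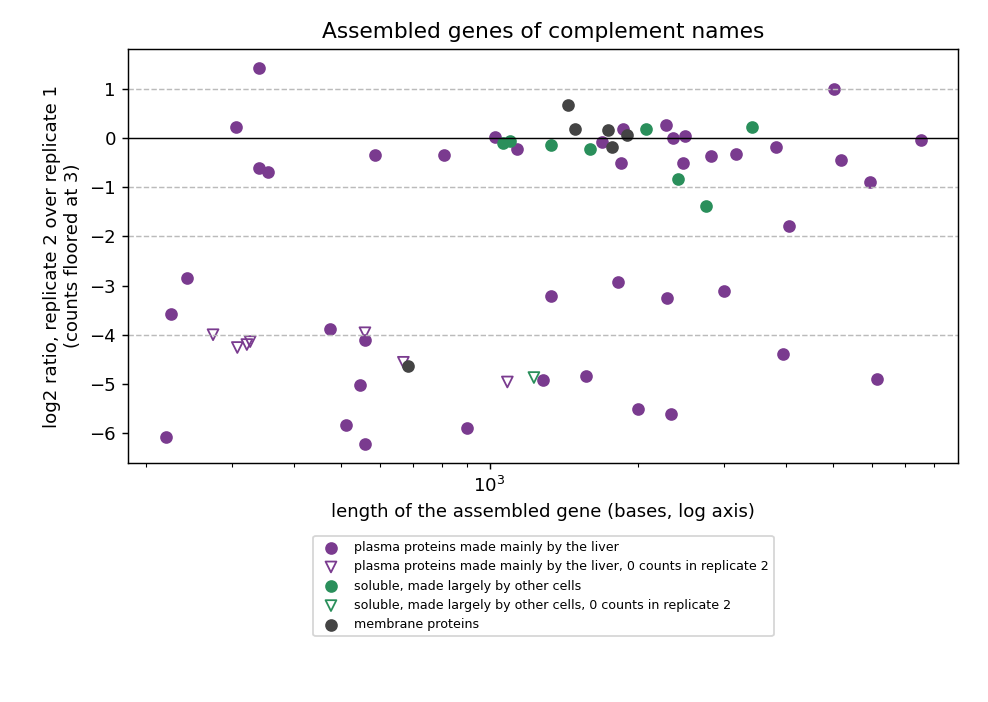
Log2 ratio between the libraries (replicate 2 over replicate 1, counts raised to a floor of 3) against length on a log axis for the 64 complement assembled genes with at least 30 counts, coloured by site of synthesis, with open triangles for those at 0 counts in replicate 2. Those under 1000 bases lie mostly below -2, and those of 1000 bases or more form a band near 0 and a second group below -2.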

How the data were processed

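Poly(A)-selected RNA was sequenced, per the labels' protocols. The authors deposited expected counts (so marked in the headers) and TPM for each Trinity assembled gene. The TPM columns carry no unit and were taken as TPM from their sums of 996837 and 996239. The submitters' processing notes name cutadapt 1.9 and, for replicate 1 only, mm10. The assembler's version and the quantifier are not given in the sources used here. Expected counts were rounded, then summed over assembled genes whose upper-cased name equals a member; TPM were summed likewise. Scaling used TMM factors of edgeR 4.0.16 (0.909643 and 1.09933, R 4.3.3) over all assembled genes. Python 3.11.15 (scipy 1.17.1, pandas 2.3.3) was used for the rest, and the ratio calculation was tested on simulated data. Fold intervals are exact conditional 95% intervals of the scaled counts. Alternatives included DESeq2 1.42.0 size factors. All members are named. The members, classes and marker lists were chosen with earlier results of these data known. The minimum of 30 counts and the 4-fold limit for assembled genes were chosen after values were seen. Of 38 members, 32 were symbols in the RefSeq table of the bat assembly ASM189008v1, used for names alone.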

Additional observations from a re-analysis of the deposited data

How the results depend on the processing

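The ratios were recomputed with a pseudocount of 0.1, with no filter or a mean of at least 10 CPM, with library size scaling or DESeq2 size factors, on summed TPM, with 1 assembled gene per name, and without assembled genes over 16-fold lower; C4A and C4B were also counted as 1 gene, chosen after seeing the data. Of 35 members, 30 kept their side of 2-fold under every alternative that gave them a value, 9 of them as lower. The other 5 were C3, C4A, CLU, FCN2 and MASP2. The number over 2-fold apart was 12 and ranged from 8 to 13, all of them lower. The 8 arose without assembled genes over 16-fold lower, which leaves fewer members tested (32) and was chosen for low ratios. Over all names, 3.45% were lower and 0.027% higher in that setting. On summed TPM, which gave the 13, these shares were 7.72% and 1.39%, against 5.16% and 0.0266% in the main setting. A shift of 0.1 in a log2 median was counted as a move, a tolerance chosen for this work. Library size scaling left the median of all names at 0.24 and gave -0.56 for liver-made members, 0.158 for other soluble members, 0.335 for membrane proteins and -0.478 for C3, so that the C1q chains changed sign. With summed TPM these were -1.166 for liver-made members, 0.099 for other soluble members and -1.002 for C3, just past 2-fold. With the highest assembled gene of each name, liver-made members had -0.712 and C3 -0.467. Without assembled genes over 16-fold lower they had -0.509 and -0.462, a rise that follows from that choice. The rise under library size scaling follows from leaving out the TMM factors and the removal of the median, and every tested member rose with it. The cause of the moves on summed TPM and with the highest assembled gene of each name was not tested. The complement share of TPM had a mean of 0.3341% and ranged from 0.2764% to 0.3918% without each replicate in turn; it was 0.4538% with the 10 highest assembled genes left out of the total, which the smaller total brings about, and 0.2455% without C3. No paired analysis was possible because all samples belong to 1 group. Low counts leave wide counting intervals for C4A, C8A, C8B, COLEC10, FCN2 and C5AR1, and variation among bats could not be measured.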
